A study of Mus musculus with 6 samples.

Results

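The genes Rgs1, Rgs2, Rgs13, Rgs18 and Rgs21 lie side by side on mouse chromosome 1, and the accessible chromatin nearest to these 5 genes is described here. A peak, a stretch of open chromatin found by ATAC-seq, was counted with them when the deposited annotation named 1 of the 5 as its gene and placed it within 200000 bp of that gene's transcription start site. By this rule 55 of 175929 peaks were taken, of which 23 belonged to Rgs1, 21 to Rgs2, 9 to Rgs13, 1 to Rgs18 and 1 to Rgs21. They ran from position 143916586 to position 144775652 of chromosome 1 in the mm10 build, a stretch of 859 kb in which every peak of the table (55 of 55) was annotated to 1 of the 5 genes. The farthest of them lay 157709 bp before the Rgs1 start site, and 0 peaks of these genes lay beyond the limit. The genes were picked because tags around Rgs1 were known to differ between the groups compared here. Tags, fold changes and counts of calls of these peaks are therefore a description, and no test of them is given.

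The cells were mouse acute myeloid leukaemia cells driven by AE9a, a shortened AML1/ETO fusion protein. In both groups they carried 1 floxed allele of Usp18 (Usp18+/f), a protease gene that restrains interferon signalling, and a Cre recombinase that is not limited to a cell type and is switched on by tamoxifen. They were grown in recipient mice, which received oil (Usp18+/f, replicates 1, 2 and 4) or tamoxifen (Usp18+/Δ, replicates 1, 3 and 4) once they were ill. GFP+ Lin- c-Kit+ cells were sorted from the spleen 3 days after the first injection. The groups differed in tamoxifen itself as well as in the Usp18 allele, and these cannot be told apart here. The study's methods describe all of its mice as young adults of both sexes. Whether the libraries of a group stem from different mice is not in the labels. The study's methods give 3 mice per group for the sorted cells, of which 1 set served for the paired ATAC-seq. That matches the number of libraries per group here, but elsewhere the methods describe ATAC-seq as done in duplicate. Each SD and n below is over libraries, and the spread between them may be technical.

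RGS proteins (regulators of G-protein signalling) speed up GTP hydrolysis by the alpha subunits of heterotrimeric G proteins and so shorten the signal that a G-protein-coupled receptor sends. In blood cells these receptors include those for chemokines, which guide migration and hold cells in their niche. Rgs1 is known for damping chemokine responses of lymphocytes, Rgs2 for acting mainly on Gq, Rgs13 for its expression in mast cells and germinal-centre B cells, Rgs18 for platelets and megakaryocytes, and Rgs21 for taste tissue.

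Total tags ran from 57.4 to 74.7 M per library (M, 1000000 tags) and those in peaks from 17.5 to 21.1 M. Pairs of oil libraries differed little beyond counting error (chi-square per degree of freedom 1.04 to 1.22), whereas tamoxifen replicate 4 differed from the other tamoxifen libraries by 2.66 and 2.68 and those 2 from each other by 1.49. The peak at the start site of Usp18 itself held 459, 415 and 440 normalised tags in the oil libraries and 441, 468 and 438 in the tamoxifen libraries, which does not check the deletion, since losing 1 allele elsewhere in the gene need not alter it. All 9 progenitor and blast markers had a promoter peak, against 4 of 10 T-cell markers, 4 of 8 B-cell markers and 2 of 10 mature myeloid markers. Summed over promoter peaks, erythroid markers (9 of 9 with a peak) held 7246 to 7590 tags after oil and 6724 to 6931 after tamoxifen, and megakaryocyte markers (6 of 10) held 2840 to 2857 and 2940 to 3156. Mast-cell markers (8 of 10) held 4600 to 4798 tags after oil and 4664 to 5000 after tamoxifen. T-cell markers held 887 to 1005 tags after oil and 863 to 986 after tamoxifen, B-cell markers 1066 to 1192 and 1085 to 1253, mature myeloid markers 67.3 to 84.2 and 85.1 to 89.1, and progenitor markers 10178 to 10339 and 10205 to 11301. The part of these differences in the values below was not tested. A rise in tags can come from more cells of a type or from more open chromatin in each cell, and bulk libraries cannot tell these apart.

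The sequences below are the central 200 bases of peaks on which the description turns, read from the + strand of GRCm38 (mm10). All 5 genes are transcribed from the - strand. The first pair comes from the region past the end of Rgs1 where tags were far higher after tamoxifen, the second pair sets the Rgs13 peak that was called beside a neighbouring peak that was almost level, and the third sets a distal Rgs2 peak beside the Rgs2 promoter. Capitals mark letters of the motifs that were searched for, which are spelled out further on.
Rgs1, 9470 bp past the start site, chr1:144239535-144239734, + strand: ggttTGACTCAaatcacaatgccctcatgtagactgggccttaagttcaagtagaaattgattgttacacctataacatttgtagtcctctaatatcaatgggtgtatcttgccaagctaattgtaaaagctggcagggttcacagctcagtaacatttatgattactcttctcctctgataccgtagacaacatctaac
Rgs1, 10773 bp past the start site, chr1:144238232-144238431, + strand: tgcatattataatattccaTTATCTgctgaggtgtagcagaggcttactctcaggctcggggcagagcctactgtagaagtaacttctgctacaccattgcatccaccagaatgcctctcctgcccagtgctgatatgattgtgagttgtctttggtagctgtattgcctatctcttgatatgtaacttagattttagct
Rgs13, 23341 bp before the start site, chr1:144200614-144200813, + strand: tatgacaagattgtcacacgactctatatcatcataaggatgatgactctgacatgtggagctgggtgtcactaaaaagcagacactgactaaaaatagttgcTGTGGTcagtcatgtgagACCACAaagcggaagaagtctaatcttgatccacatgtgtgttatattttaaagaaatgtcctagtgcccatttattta
Rgs13, 20512 bp before the start site, chr1:144197785-144197984, + strand: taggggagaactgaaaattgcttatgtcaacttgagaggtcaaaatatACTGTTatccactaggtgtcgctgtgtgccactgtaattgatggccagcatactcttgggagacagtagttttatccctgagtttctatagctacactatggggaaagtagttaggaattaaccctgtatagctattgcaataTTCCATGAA
Rgs2, 72075 bp before the start site, chr1:144076125-144076324, + strand: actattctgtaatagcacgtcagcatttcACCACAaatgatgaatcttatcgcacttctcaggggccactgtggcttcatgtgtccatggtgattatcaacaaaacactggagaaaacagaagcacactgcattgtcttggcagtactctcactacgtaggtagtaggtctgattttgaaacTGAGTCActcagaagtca
Rgs2, 102 bp before the start site, chr1:144004152-144004351, + strand: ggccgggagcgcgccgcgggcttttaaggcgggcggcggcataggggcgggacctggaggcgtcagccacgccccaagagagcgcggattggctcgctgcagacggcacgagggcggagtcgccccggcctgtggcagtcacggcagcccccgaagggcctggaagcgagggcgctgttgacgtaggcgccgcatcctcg
The Rgs2 promoter stood apart in composition, with 74% G and C against 38.5% to 43.5% in the other 5 windows.

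Of the 55 peaks, 11 had more tags after tamoxifen by the study's criterion (fold change over 2 and adjusted p under 0.05 in DESeq2, termed called here) and 0 had fewer. Over all 175929 peaks 0.654% were called, 0.588% with more tags and 0.0659% with fewer. The 11 comprised 9 of 23 Rgs1 peaks, 1 of 9 Rgs13 peaks and the Rgs18 peak, with 0 of 21 for Rgs2 (1 in edgeR, the alternative tool) and 0 of 1 for Rgs21. On adjusted p alone, 14 of 55 had more tags (1.22% of all peaks) and 0 had fewer. In 25 of 55 each tamoxifen library lay above each oil library (11.8% of all peaks), and in 2 each lay below (9.99% of all peaks). The median log2 fold change was 0.48 over the 55 peaks and -0.0013 over all peaks, and 47 of the 55 were above 0. As the members were picked on this contrast, these shares describe them and show nothing further. Counts depended on single libraries, with 9 called when oil replicate 1 was left out, 6 when oil replicate 2 or oil replicate 4 was, 6 when tamoxifen replicate 1 was, 3 when tamoxifen replicate 3 was and 13 when tamoxifen replicate 4 was. In these fits, in the order oil 1, 2 and 4 and tamoxifen 1, 3 and 4, 5, 13, 8, 8, 12 and 0 of the 55 peaks received no adjusted p and so could not be called.

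**Figure D1:**
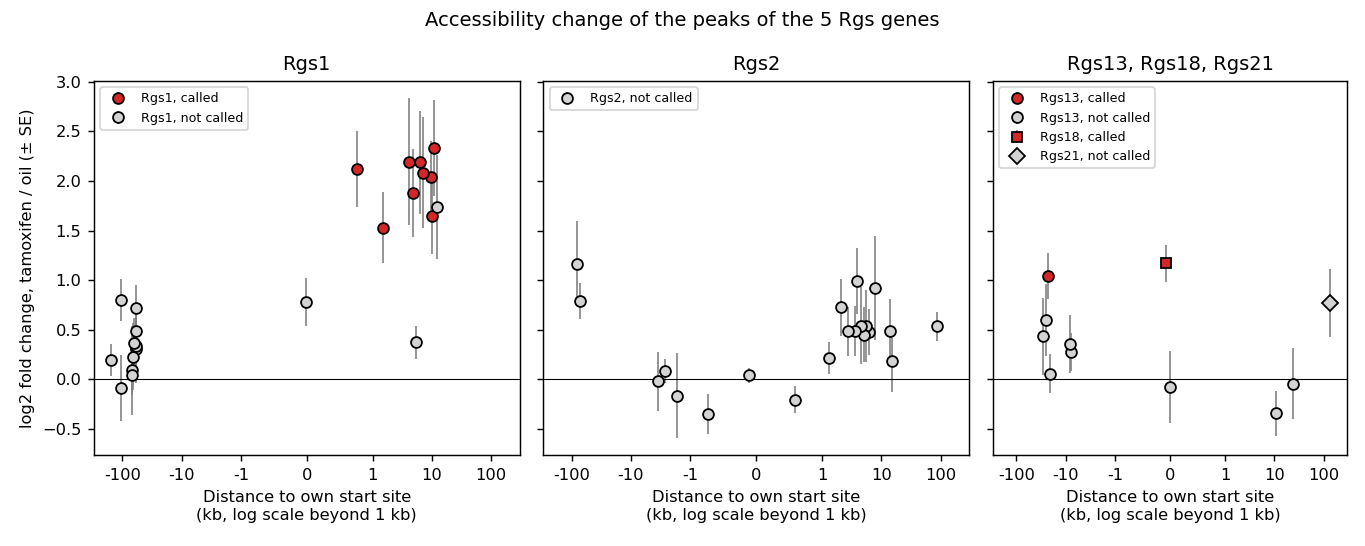
Log2 fold change (tamoxifen over oil, ± SE, DESeq2, n = 3 libraries a group) of each of the 55 peaks against the distance of its centre from the start site of its own gene, in kb on a scale that is logarithmic beyond 1 kb. Positive distances lie past the start site in the direction of transcription. Red points were called, and they cluster past the Rgs1 start site, where log2 fold changes reached 2.33, whereas no Rgs2 peak was called.

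Rgs1 showed the largest differences, and they lay within and just past the gene. From its promoter to 12064 bp past the start site there were 12 peaks, of which 9 were called, and all 12 had a positive log2 fold change (median 1.96, range 0.37 to 2.33). Of these 12 peaks, 10 came only from the authors' tamoxifen peak list and 2 from both lists, so that for the 10 the peak search itself had picked stretches open after tamoxifen. Summed over all 12, tags were 543, 527 and 620 in the oil libraries and 1104, 1719 and 814 in the tamoxifen libraries, or 563 ± 49.9 against 1212 ± 462 (SD, n = 3), a ratio of 2.15. Over the 10 alone, which were admitted through the group in which they are high, tags were 141, 121 and 176 in oil replicates 1, 2 and 4 and 499, 902 and 308 in tamoxifen replicates 1, 3 and 4. That is 146 ± 27.6 against 570 ± 303 (SD, n = 3), a ratio of 3.91, with every tamoxifen library above every oil library.

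The promoter peak of Rgs1 (chr1:144248986-144249259) was already open after oil and was not called. It held 234, 211 and 267 normalised tags in the oil libraries and 400, 518 and 307 in the tamoxifen libraries, a log2 fold change of 0.78 ± 0.24 (SE). The groups did not overlap, but tamoxifen replicate 4 was only slightly above the highest oil library. A second peak that both lists held, just past the annotated transcript end (5367 bp past the start site), had 168, 195 and 177 tags after oil and 205, 299 and 198 after tamoxifen, a log2 fold change of 0.37 ± 0.16. These 2 were the highest peaks of the Rgs1 gene region, and they had the smallest fold changes of the 12.

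Between and beyond them lay peaks that were barely open after oil. In the introns of the RefSeq model, the peak 756 bp past the start site (chr1:144248229-144248468) held 14.3, 15.6 and 19.7 tags after oil and 67.7, 114 and 37.2 after tamoxifen, a log2 fold change of 2.12 ± 0.38. At 1481 bp (chr1:144247435-144247812) the oil libraries held 24.3, 20.5 and 24.2 tags and the tamoxifen libraries 48.3, 109 and 42.8, a log2 fold change of 1.53 ± 0.36. In both peaks tamoxifen replicate 3 held more than any other library and the groups were apart. In the last exon, at 4149 bp (chr1:144244841-144245069), tags were 8.82, 11.7 and 17.9 after oil and 52.2, 99.2 and 26.1 after tamoxifen, a log2 fold change of 2.19 ± 0.64. At the transcript end, 4742 bp past the start site (chr1:144244196-144244529), they were 7.72, 12.7 and 19.7 after oil and 46.4, 80.2 and 24.2 after tamoxifen, with a log2 fold change of 1.88 ± 0.44. Here tamoxifen replicate 4 lay close to oil replicate 4, the highest oil library, and the other 2 tamoxifen libraries lay far above it.

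Farther on, 5 more peaks were called that the deposited annotation gave as intergenic. The peak at 6211 bp (chr1:144242793-144242994) held 11.0, 7.80 and 8.06 tags after oil and 40.6, 69.1 and 13.04 after tamoxifen, a log2 fold change of 2.19 ± 0.52. At 6987 bp (chr1:144241938-144242296) the tags were 22.1, 9.75 and 25.1 after oil and 67.7, 126 and 48.4 after tamoxifen, a log2 fold change of 2.09 ± 0.56. GENCODE vM21 gives Rgs1 longer transcripts than the RefSeq model of the deposited annotation, ending at position 144242296, so that by GENCODE the first of these peaks lies in the untranslated end of Rgs1 and the second touches its last base. The peak at 9470 bp (chr1:144239440-144239828), printed above, held 17.6, 14.6 and 21.5 tags after oil and 63.8, 115 and 43.8 after tamoxifen, a log2 fold change of 2.04 ± 0.37. At 10040 bp (chr1:144238920-144239209) tags were 17.6, 17.6 and 16.1 after oil and 44.5, 81.3 and 35.4 after tamoxifen, a log2 fold change of 1.64 ± 0.38. The peak at 10773 bp (chr1:144238224-144238438), also printed above, held 7.72, 3.90 and 11.6 tags after oil and 34.8, 57.9 and 26.1 after tamoxifen, which gave the largest log2 fold change of the 55 peaks, 2.33 ± 0.48. By both annotations these 3 lie outside any transcript of the 5 genes, and in each the lowest tamoxifen library held more tags than the highest oil library. The last peak of the row, at 12064 bp, was not called: tags were 9.93, 6.83 and 11.6 after oil and 32.9, 51.3 and 11.2 after tamoxifen, and tamoxifen replicate 4 fell inside the oil range.

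**Figure D2:**
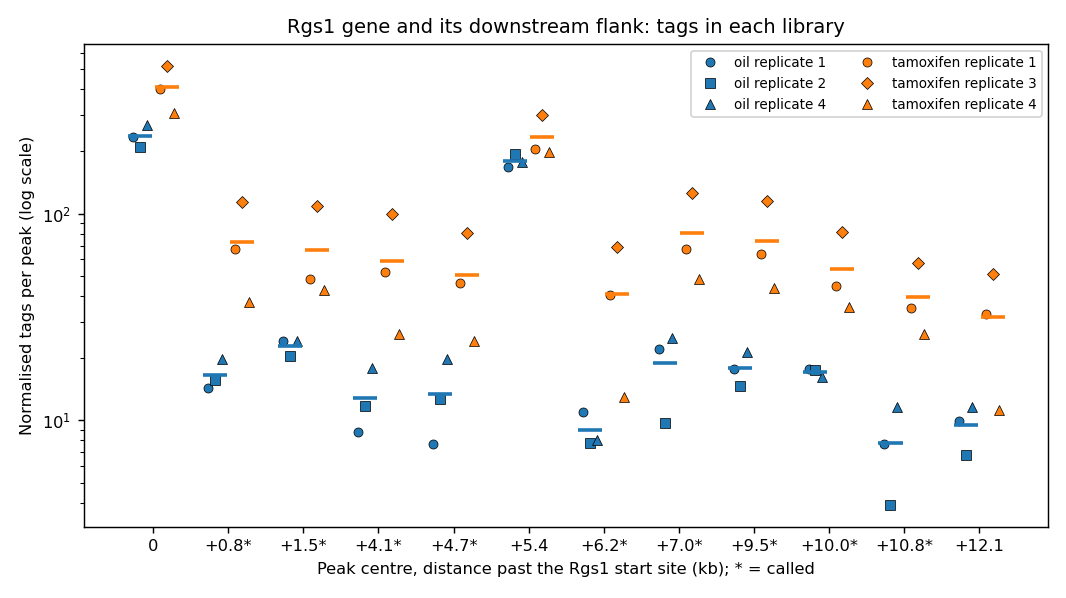
Normalised tags (log scale) in each library at the 12 peaks from the Rgs1 promoter (left) to 12064 bp past its start site (right), with oil libraries in blue, tamoxifen libraries in orange and a bar for each group's mean. An asterisk marks a called peak. Tamoxifen replicate 3 (diamond) is highest and tamoxifen replicate 4 (triangle) lowest of the tamoxifen libraries at each of the 12 peaks, and the 2 peaks that are high after oil show the smallest difference.

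The 3 tamoxifen libraries kept the same order at each of the 12 peaks (replicate 3 over 1 over 4 in 12 of 12), an order found at 36089 of all 175929 peaks. Neighbouring peaks share their libraries, so the 12 are not 12 independent observations. As medians over the 12 peaks, the log2 difference from the oil mean (1 tag added) was 1.75 in replicate 1, 2.56 in replicate 3 and 0.92 in replicate 4. The peaks at 756 and 9470 bp were called whichever single library was left out. Without tamoxifen replicate 3 their log2 fold changes were 1.65 and 1.58, and the peak at 6987 bp also stayed called. The peaks at 1481 and 10040 bp did not (log2 fold changes 0.99 and 1.22). Those at 4149, 4742, 6211 and 10773 bp (1.59, 1.38, 1.58 and 1.96) received no adjusted p in that fit and so could not be called. Oil levels of the 9 called peaks averaged only 7.76 to 22.98 tags, and the tamoxifen libraries differed among themselves at each. How much counting error and this spread each add to the uncertainty of a fold change was not worked out.

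Upstream of Rgs1 the differences were small. The 11 peaks from 58157 to 157709 bp before the start site, all intergenic, had log2 fold changes from -0.09 to 0.80 with a median of 0.31, and 0 were called. Summed, they held 700, 699 and 779 tags after oil and 838, 1051 and 909 after tamoxifen, a ratio of 1.28, with the groups apart. The largest difference lay 106660 bp before the start site (chr1:144355642-144355886), with 70.6, 57.5 and 70.8 tags after oil and 101, 143 and 104 after tamoxifen, a log2 fold change of 0.80 ± 0.22. Its neighbour 104394 bp before the start site held 45.2, 27.3 and 35.8 tags after oil and 31.9, 41.2 and 28.9 after tamoxifen, so that the groups overlapped there. In this upstream region tamoxifen replicate 4 was not the lowest of its group, since the medians over the 11 peaks were 0.12, 0.46 and 0.32 in replicates 1, 3 and 4.

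Rgs2, which lies beyond Rgs13 as seen from Rgs1, had the strongest promoter of the 5 genes and it was level between the groups. The peak 102 bp before its start site (chr1:144004123-144004380) held 913, 862 and 833 tags after oil and 872, 949 and 859 after tamoxifen, a log2 fold change of 0.04 ± 0.08. The 6 peaks from 3445 bp before to 584 bp past the start site summed to 1529 ± 44.9 tags in the oil libraries and 1515 ± 76.3 in the tamoxifen libraries (SD, n = 3), a ratio of 0.991. Within this stretch 2 of the 6 peaks had each tamoxifen library below each oil library (9.99% of all peaks), and neither was called. They lay at 730 bp before the start site (107, 101 and 104 against 80.2, 78.0 and 86.6 tags, log2 fold change -0.35 ± 0.20) and at 584 bp past it (210, 222 and 237 against 182, 204 and 196 tags, log2 fold change -0.21 ± 0.14).

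From 1298 bp past the Rgs2 start site to beyond the gene's end a different pattern was seen. It was strongest in tamoxifen replicate 3, smaller in replicate 1 and absent from the summed tags of replicate 4. All 10 peaks from 1298 to 7704 bp past the start site had a positive log2 fold change (0.21 to 0.99, median 0.51), and 0 were called. Tamoxifen replicate 3 held the most tags of the 6 libraries in 10 of 10, while tamoxifen replicate 4 lay inside the oil range in 6. Over all 175929 peaks the same was seen at 38934 and 75505. Their summed tags were 666, 697 and 814 after oil and 885, 1456 and 739 after tamoxifen. Tamoxifen replicates 1 and 3 were thus above the highest oil library, and tamoxifen replicate 4 was below it. At 3913 bp past the start site, in the last exon, the oil libraries held 35.3, 27.3 and 37.6 tags and the tamoxifen libraries 52.2, 105 and 43.8, with a log2 fold change of 0.99 ± 0.33, the largest of the 10. Medians of the log2 difference from the oil mean were 0.37, 1.08 and -0.02 in tamoxifen replicates 1, 3 and 4.

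Beyond 10 kb from the start site Rgs2 had 5 peaks, with log2 fold changes of 0.18 to 1.17. In 4 of them each tamoxifen library lay above each oil library (11.8% of all peaks). Of these 4, the peak 82164 bp before the start site came only from the tamoxifen peak list, and so was admitted through the group in which it is high. The peak 72075 bp before the start site (chr1:144076088-144076361), printed above, held 83.8, 89.7 and 96.8 tags after oil and 137, 172 and 161 after tamoxifen, a log2 fold change of 0.79 ± 0.18. At 82164 bp before the start site the tags were 13.2, 12.7 and 13.4 after oil and 19.3, 36.8 and 32.6 after tamoxifen, a log2 fold change of 1.17 ± 0.43. At 87428 bp past the start site they were 169.9, 142 and 159.5 after oil and 215, 247 and 222 after tamoxifen, a log2 fold change of 0.53 ± 0.15. In all 3 the groups did not overlap and tamoxifen replicate 4 was above replicate 1, but none of the 3 met both parts of the criterion. Nearer the gene, the peak at 13739 bp past the start site held 30.9, 25.4 and 29.6 tags after oil and 35.8, 46.8 and 38.2 after tamoxifen, a log2 fold change of 0.49 ± 0.32 with no overlap. It was not called. At 15255 bp the tags were 28.7, 37.1 and 34.0 after oil and 40.6, 35.7 and 37.2 after tamoxifen, a log2 fold change of 0.18 ± 0.31, and the groups overlapped. Of the 3 farther peaks, the first and the last passed on adjusted p and fell short of a 2-fold change, whereas the peak at 82164 bp passed on fold and not on adjusted p.

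**Figure D3:**
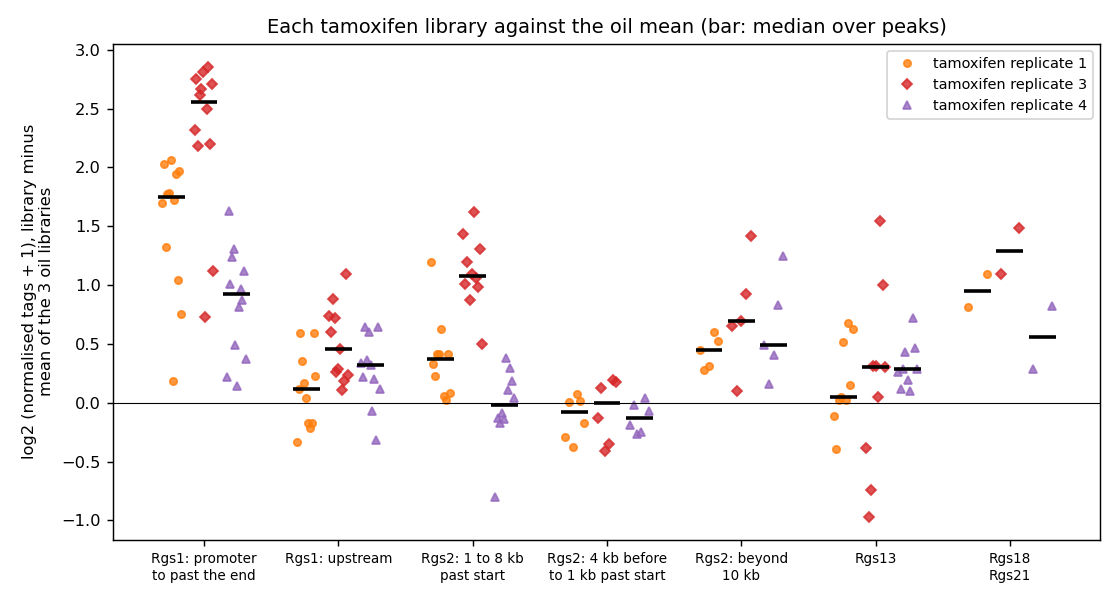
Log2 difference of each tamoxifen library from the mean of the 3 oil libraries (1 tag added), 1 point a peak, for stretches of the 5 genes, with a bar at the median over peaks. Replicate 3 leads in the Rgs1 stretch from the promoter to 12064 bp past the start site (median 2.56). It also leads from 1298 to 7704 bp past the Rgs2 start site (1.08), where replicate 4 is at -0.02. The peaks around the Rgs2 start site sit near 0 in all 3.

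Rgs13 had 1 called peak, and it lay upstream of the gene. That peak, 23341 bp before the start site (chr1:144200567-144200859) and printed above, held 68.4, 71.2 and 62.7 tags after oil and 108, 198 and 112 after tamoxifen, a log2 fold change of 1.04 ± 0.23. All 3 tamoxifen libraries were above the oil libraries, with replicate 3 far above the others, and without that library the log2 fold change was 0.71 and the peak was not called, nor was it without oil replicate 4 (0.99). The neighbouring peak at 20512 bp (chr1:144197782-144197987) held 88.2, 91.7 and 91.4 tags after oil and 91.8, 93.6 and 96.8 after tamoxifen, a log2 fold change of 0.06 ± 0.20. The 6 peaks before the start site, 7726 to 29499 bp away, all had positive log2 fold changes (0.06 to 1.04). Of these 6, the 2 farthest came only from the tamoxifen peak list, and so were admitted through the group in which they are high. In the gene itself 3 of 3 peaks had log2 fold changes below 0 (-0.34 to -0.04), as did 88423 of all 175929 peaks. Tamoxifen replicate 4 lay above the oil mean at each of these 3. Without tamoxifen replicate 3 the log2 fold change of the promoter peak was 0.16, so no direction can be given for the gene. The promoter peak held 27.6, 33.2 and 30.5 tags after oil and 30.9, 17.8 and 37.2 after tamoxifen, a log2 fold change of -0.08 ± 0.36. An intron peak 10892 bp past the start site held 124, 111 and 109 tags after oil and 87.0, 57.9 and 125 after tamoxifen, a log2 fold change of -0.34 ± 0.23. Tamoxifen replicate 3 was the lowest library in both of these Rgs13 peaks, and the groups overlapped. It was the highest at the 12 peaks from the Rgs1 promoter on and at the 10 peaks from 1298 to 7704 bp past the Rgs2 start site.

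Rgs18 was represented by its promoter peak alone, 74 bp before the start site (chr1:144775351-144775652). It held 105, 99.5 and 86.0 tags after oil and 208, 273 and 172 after tamoxifen, a log2 fold change of 1.17 ± 0.18, and no promoter peak of the other 4 genes was called. The lowest tamoxifen library held well over the highest oil library. Without tamoxifen replicate 3 its log2 fold change was 0.98, just under the fold limit. Megakaryocyte markers, for cells in which Rgs18 is known to be expressed, also summed to more tags after tamoxifen without overlap (2840 to 2857 against 2940 to 3156), and the part of this in the Rgs18 value was not tested. Rgs21 had no promoter peak. Its 1 peak (chr1:144431596-144431827) lies between Rgs1 and Rgs21, 135956 bp past the Rgs21 start site, and held 15.4, 33.2 and 37.6 tags after oil and 51.2, 62.4 and 35.4 after tamoxifen, with overlap between the groups and a log2 fold change of 0.77 ± 0.35.

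Set per kb of peak, so that genes with wide and narrow peaks can be compared, Rgs2 was the most open of the 5 after oil at 377 ± 10.6 tags per kb (SD, n = 3). Rgs18 followed at 320 ± 32.1, then Rgs1 at 208 ± 15.3 and Rgs13 at 203 ± 8.02, which did not differ beyond their spread, and Rgs21 at 124 ± 50.6. After tamoxifen Rgs18 came first at 721 ± 169 tags per kb, ahead of Rgs2 at 444 ± 71.7 and Rgs1 at 345 ± 89.0, which overlapped in their spread. Rgs13 at 243 ± 17.7 and Rgs21 at 214 ± 58.5 came last and overlapped in their spread too. As ratios of mean tags after tamoxifen to those after oil, the 5 genes stood at 2.25 for Rgs18, 1.73 for Rgs21, 1.66 for Rgs1, 1.19 for Rgs13 and 1.18 for Rgs2. The Rgs18 value rests on a promoter peak alone, whereas those of Rgs1, Rgs2 and Rgs13 mix promoter and distal peaks. Of the 23 Rgs1 peaks, 10 came only from the tamoxifen peak list and 1 only from the oil list. For Rgs2 these were 2 and 3 of 21, and for Rgs13 2 and 0 of 9. Peaks of the tamoxifen list alone were admitted through the group in which they are high. The levels and ratios, that of Rgs1 above all, therefore depend in part on the peak search.

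Motif letters were searched on both strands of the central 200 bases, and each share is set beside that of 175738 peaks of the whole table. The RUNX core, TGTGGT, is bound by the family of the AML1 part of AML1/ETO, and 9 of the 55 peaks held it (16.4%, against 18.7%). The ETS core GAGGAA was in 16 (29.1% against 21.6%), and the GATA letters AGATAA were in 14 (25.5% against 15.1%). The AP-1 letters TGANTCA were in 8 (14.5% against 6.61%), and the CEBP letters TTGCNNAA in 7 (12.7% against 6.45%). These 4 shares lay above that of the table, and the RUNX share lay below it. The MYB letters AACNGT were in 12 (21.8% against 20.9%), and the interferon-stimulated response element (ISRE), GAAANNGAAA, was in 4 (7.27% against 2.03%). The STAT letters TTCNNNGAA were in 1 (1.82% against 4.86%), and the NF-kB consensus was in 3 (5.45% against 5.03%). None of these shares was tested, and peaks of the same gene are not independent.

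Of the 11 called peaks, 3 held MYB letters, 2 each held RUNX, ETS, GATA or CEBP letters, 1 held AP-1 letters and 0 held the rest. Of the 9 called Rgs1 peaks, 0 held RUNX, ISRE, NF-kB or STAT letters. Over all 175738 peaks searched, those shares were 18.7%, 2.03%, 5.03% and 4.86%. MYB letters were in 3 of the 9, and ETS, GATA, AP-1 and CEBP letters in 1 each. These counts were not tested. In the sequences above, the Rgs1 peak at 9470 bp carries AP-1 letters and the one at 10773 bp GATA letters. The called Rgs13 peak carries the RUNX core at 2 places on opposite strands, whereas its level neighbour carries MYB and STAT letters and no RUNX core. The distal Rgs2 peak holds RUNX and AP-1 letters, and the Rgs2 promoter window holds none of the 9 motifs. The 55 peaks had a median of 43.0% G and C in these windows against 50.5% over the table, and 3.64% of them were at least 50% repeat sequence against 11.3%. The deposited annotation placed 5 of the 9 called Rgs1 peaks in repeats, those at 6987, 9470 and 10040 bp in LINE elements and those at 756 and 1481 bp in SINE elements. Of their central 200 bases, 92% was repeat sequence at 6987 bp, where reads are harder to place, and 0% to 21.5% in the other 4.

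Of the peaks of other Rgs genes and of G-protein signalling genes, 0.730% and 0.453% were called, near the 0.654% of all peaks. Of 16 other Rgs genes, 15 had a peak within the limit (Rgs4 had none), and 1 of their 137 peaks was called, with more tags (background 0.654%), at a median log2 fold change of 0.07. That peak lay 132959 bp past the start site of Rgs3 and rose from 19.3 ± 1.46 to 57.5 ± 21.7 tags (SD, n = 3), a log2 fold change of 1.57 ± 0.35 (DESeq2 adjusted p = 0.0017). It came only from the tamoxifen peak list, so it was admitted through the group in which it is high and its adjusted p is a description. The peak at the Rgs6 start site passed on adjusted p alone (log2 fold change 0.80 ± 0.17, DESeq2 adjusted p = 0.00051), as did one 9410 bp before that of Rgs12 (0.58 ± 0.16, DESeq2 adjusted p = 0.038). Among genes that flank the 5 on chromosome 1 (Uchl5, Glrx2, Trove2, Cdc73 and B3galt2, with no peak for Kcnt2 or Brinp3), 0 of 26 peaks were called in DESeq2 or edgeR, 0 had an unadjusted p under 0.05, and the median was 0.02.

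Genes that act with RGS proteins were taken by role. Of 115 peaks of alpha subunits, 152 of beta and gamma subunits, 158 of effectors and 55 of receptor kinases and arrestins, 0 were called in DESeq2, at medians of -0.05, -0.06, -0.12 and 0.01, and 3, 6, 9 and 6 had an unadjusted p under 0.05, as did 15868 of all 175929 peaks. Of 182 peaks of blood-cell receptors, 26 had an unadjusted p under 0.05 in DESeq2. Against 0.588% of all peaks, 3 of the 182 (1.65%) were called, all with more tags. Of these, 2 belonged to Adora2a, an adenosine receptor gene, at 43625 bp before its start site (13.6 ± 1.64 to 66.2 ± 21.8 tags, log2 fold change 2.29 ± 0.36, DESeq2 adjusted p = 4.1e-07) and 2905 bp past it (28.0 ± 8.98 to 60.8 ± 3.52 tags, log2 fold change 1.10 ± 0.30, DESeq2 adjusted p = 0.026). The other belonged to Fpr1, a receptor for formylated peptides, and rose from 16.5 ± 3.88 to 45.8 ± 8.90 tags (log2 fold change 1.47 ± 0.36, DESeq2 adjusted p = 0.0079). The Fpr1 peak and the Adora2a peak at 43625 bp came only from the tamoxifen peak list. These 2 of the 3 were thus admitted through the group in which they are high, and their adjusted p and the 1.65% are a description. On adjusted p alone, 1 peak each of Grk2, Adcy9, Gng2, Ccr7 and S1pr1 also had more tags (log2 fold changes 0.60, 0.90, 0.86, 0.82 and 0.93), so that 8 of 662 peaks of the list passed, all upward, a share near the 1.22% of all peaks.

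**Figure D4:**
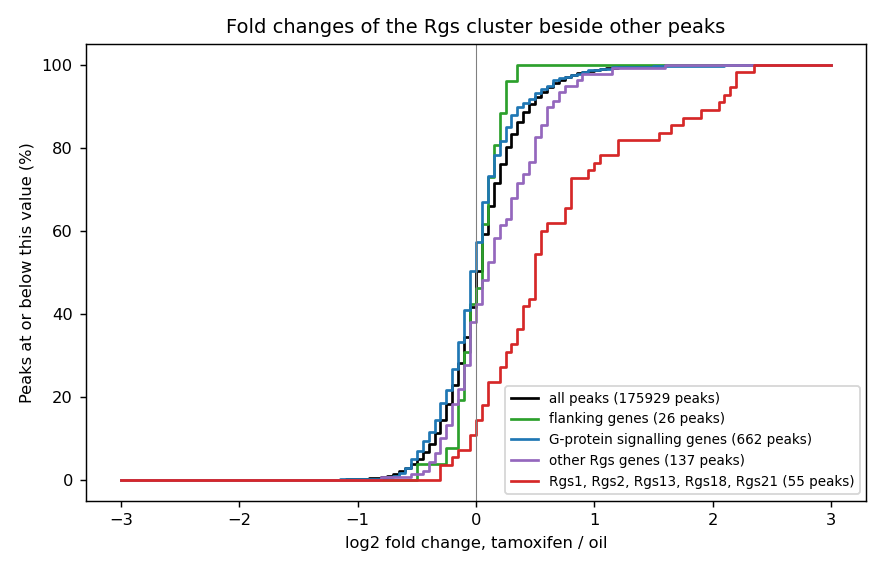
Share of peaks (in %) at or below each log2 fold change, tamoxifen over oil, for the 55 peaks of the 5 Rgs genes, the 137 of other Rgs genes, the 26 of flanking genes, the 662 of G-protein signalling genes and all 175929. The Rgs1 to Rgs21 curve lies to the right, with a median of 0.48 against 0.07, 0.02, -0.05 and -0.0013 for the others, and its members were picked on this contrast.

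Genes whose summed tags followed those of Rgs1 most closely were looked up among 9618 genes with at least 5 peaks and a mean of at least 500 tags. Over the 6 libraries, the Pearson correlation of log2 tags was 0.998 for Mir7681, 0.998 for Itgb2, 0.997 for Tgm2, 0.997 for Nhlrc1 and 0.997 for Tpst2. Mir7681 had a ratio of tamoxifen to oil tags near that of Rgs1 (1.55 against 1.66), with 426, 420 and 459 tags after oil and 639, 835 and 553 after tamoxifen, whereas Itgb2, which encodes the beta chain of leukocyte integrins, had a ratio of 1.12. Of the neighbours, Rgs2 stood at 0.942 (rank 258) and Rgs13 at 0.791 (rank 1288). With 6 points in 2 groups that share libraries, these values describe likeness and were not tested.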

How the data were processed

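ATAC-seq was measured in 6 libraries of sorted mouse leukaemia cells, 3 per group. Per the submitters' notes and the study's methods, the authors used Bowtie2 for mapping to mm10 and HOMER for peak calling, merging and counting. The deposited values are raw tags, an expected count, not normalised. They come in steps of 0.5 and were limited to 3 tags per position. Versions are not given in the sources used here. The peak lists, 1 for each group, came from the same libraries that were compared.

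Tags were rounded to whole numbers and all 175929 peaks were fitted together with DESeq2 1.42.0 (R 4.3.3, Wald test, Benjamini-Hochberg), tamoxifen against oil. Normalised tags are tags divided by DESeq2 size factors. Calls needed more than a 2-fold change together with an adjusted p below 0.05. Peaks over 3000 bp from a start site were termed distal (42 of 55). Alternatives were edgeR 4.0.16 (quasi-likelihood), other size factors, filters, limits and each library left out.

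Named in the text were, for each gene, the peak nearest its start site, the highest peak per kb after oil and the called peaks, and of the other lists the genes with a called peak. Other peaks are given as a description of their stretch and were chosen after their values were seen. The genes, lists and rules were chosen with earlier results of these data known. Replicate numbers 1 and 4 occur in both groups, but deviations of same-numbered libraries did not go together (correlation -0.044 and 0.051). Sequences were read from RefSeq's GRCm38 assembly. Of the 5 genes, 3 had an entry in the RefSeq promoter table, and the file's start sites lay within 0.5 bp of RefSeq's.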

Additional observations from a re-analysis of the deposited data

How the results depend on the processing

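Counts of called peaks with TMM size factors, total mapped tags or total tags in peaks as the scale, a mean of at least 10 tags, distal peaks alone, or an adjusted p under 0.1 stayed within 1.5 times the values given. With edgeR, 7 of the 55 peaks were called (6 of the 11 among them), with 2 for other Rgs genes, 6 for signalling genes and 1815 over all peaks. Without a fold limit the counts were 3 for other Rgs genes, 8 for signalling genes and 2448 over all peaks, and within 100000 bp of the start site 0 for other Rgs genes (the Rgs3 peak lies farther out). Leaving out 1 library at a time gave 3 to 13 of the 55 peaks, 0 to 2 for other Rgs genes, 1 to 8 for signalling genes and 369 to 2710 over all peaks, lowest for the 55 peaks and over all peaks without tamoxifen replicate 3 and highest without tamoxifen replicate 4. In these fits 0 to 13 of the 55 peaks had no adjusted p. A replicate block could be fitted on the 4 libraries with numbers 1 and 4 alone. It called 0 of the 55 peaks (14 had no adjusted p), 0 for other Rgs genes, 0 for signalling genes and 52 over all peaks (19 higher, 33 lower), and as it drops oil replicate 2 and tamoxifen replicate 3 and the numbers were not seen to pair, it says little of the 11. Wherever they were fitted, all 11 kept their direction, and among log2 fold changes of single named peaks under these alternatives 196 stayed within 1 SE of the value given and 19 moved further, all in the block or without tamoxifen replicate 3. The causes were not tested. Low oil tags around Rgs1, 3 libraries a group and the unclear number of mice behind the libraries limit how far any single fold change can be taken.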
